A study of Drosophila melanogaster with 24 samples.

Results

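The nuclear genes for the subunits of the mitochondrial oxidative phosphorylation complexes were followed through embryonic and larval stages of Drosophila melanogaster that were mutant or heterozygous for sima, which encodes the alpha subunit of hypoxia-inducible factor in flies, a transcription factor that acts when oxygen is low. The members were all genes whose FlyBase symbol starts with ND-, UQCR-, COX and a digit, or ATPsyn. That rule gave 80 genes among the 17895 gene rows of the larval table, of which 40 were named for complex I, 9 for complex III, 16 for complex IV and 15 for complex V. The embryo table held 48 of the 80 among its 10889 gene rows, and the other 32 were not analysed here in embryos. The rows analysed in embryos held 0 of the 16 members on chromosome arm 2L. They also held 0 of the 12 on X and 0 of the 2 on chromosome 4. Sums and shares over all genes in embryos cover those 10889 rows only. Among the 80, 21 carry the suffix L of a second gene copy (COX4L beside COX4, for example), and these are called paralogs below.

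Oxidative phosphorylation takes place in the inner mitochondrial membrane. Complex I passes electrons from NADH to ubiquinone, complex III from ubiquinol to cytochrome c, and complex IV from cytochrome c to oxygen, while protons are pumped across the membrane. Complex V, the ATP synthase, makes ATP as protons flow back through its c ring. Most subunits are encoded in the nucleus and the rest in mitochondrial DNA. Hypoxia-inducible factor is known in mammals for raising glycolytic genes when oxygen is low, and the series title asks about its fly form in the glycolytic program of larvae.

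Mutants were labelled Sima 1/20 and controls Sima 1/+, so that every animal carried allele 1 and the groups differed in what lay on the other chromosome. Embryos were taken at 8-12 h, then at 12-16 h, then at 16-20 h after egg laying, and whole larvae at 60 h, with 3 mutant and 3 control samples at each stage. Samples were not stated to come from separate cultures, so p-values measure the spread between these samples, which may be technical. RNA was from whole animals, in which fewer cells of a type and less RNA per cell cannot be told apart.

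Values are FPKM, fragments per kilobase of gene and M fragments (M for mega), as the authors deposited them. The estimated FPKM denominator ran from 6.60 to 13.4 M fragments per embryo sample and from 10.3 to 15.2 M per larval sample. The sima transcript averaged 1.96, 2.58 and 3.40 FPKM in mutant embryos of the 3 stages, against 2.46, 3.18 and 4.25 FPKM in control embryos, and 1.26 FPKM in mutant larvae, against 1.61 FPKM in control larvae, so it was present in every group. In the labelled larvae, the summed level of 7 fat body markers was 791 to 2881 FPKM in mutants and 3666 to 5440 FPKM in controls. The 3 of those markers that the embryo table holds summed to at most 7.57 FPKM in any embryo sample.

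Differences were tested with limma on log2(FPKM + 1), on which scale all log2 fold changes below stand, with Benjamini-Hochberg adjustment over all genes tested (6784 in embryos, 8619 in larvae) and a threshold of 0.05. A gene had to reach 1 FPKM in at least 3 samples of its table. In embryos 37 members were tested: 14 of complex I, 7 of complex III, 7 of complex IV and 9 of complex V. The 11 members of the embryo table that fell below the filter were all paralogs. In larvae 58 were tested, and the 22 that fell below it were 19 paralogs with ND-B8, ND-MNLL and UQCR-14. A member that passed only through a group where it is high had to differ, so counts over tested members are not counts over all members.

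In 2 libraries these genes lay lowest relative to the other samples of the group. Among the 31 tested embryo members that are not paralogs, 27 were lowest of their group in replicate 2 of the 12-16 h controls, which lay a median of 0.46 below the mean of the other 2 controls on the log2 scale. Among the 56 such members in larvae, 50 were lowest in control replicate 3, with a median difference of -0.53. In the other libraries the median difference lay between -0.22 and 0.34, and most members were lowest or highest in some of them too: 28 of 31 were lowest in replicate 1 of the 16-20 h controls (median difference -0.13), 26 lowest in replicate 3 of the 16-20 h mutants (-0.22) and 28 highest in replicate 2 of the 16-20 h mutants (0.21). The 2 libraries named first had estimated depths of 10.1 and 12.7 M fragments, within the ranges above. Neither is a labelled batch, and both are used in what follows. The median coefficient of variation of a member over replicates was 20.6% in 12-16 h controls and 21.0% in larval controls, and between 6.47% and 10.4% in the other 6 groups.

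Levels differed more between complexes and subunits than between genotypes. Over the members that are not paralogs, the median level at 16-20 h was 119 ± 17.1 FPKM in mutants and 119 ± 8.34 FPKM in controls for complex I (SD over samples, n = 3 each). For complex V it was 283 ± 30.7 FPKM in mutants and 298 ± 13.8 FPKM in controls. The 4 complex IV genes analysed in embryos were the most even: their group means spanned 1.58-fold in mutants and 1.76-fold in controls at 16-20 h. The 14 complex I genes spanned 8.79-fold in mutants and 8.75-fold in controls at that stage. A span can only widen as genes are added, and the 8 complex IV genes in larvae spanned 5.09-fold in mutants and 5.10-fold in controls.

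**Figure D1:**
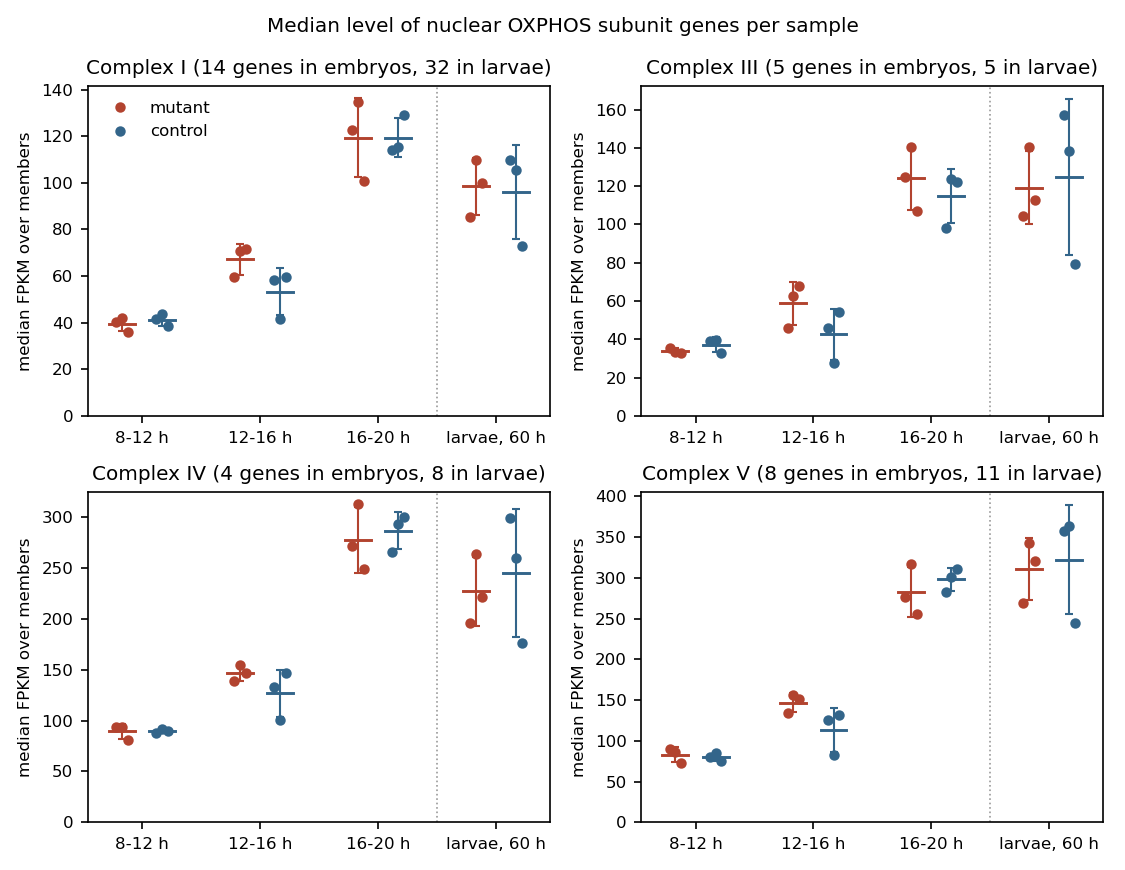
Median FPKM over the members of each complex that are not paralogs, per sample (points), with the group mean (bar) and SD (error bar); n = 3 samples per group, mutants left of controls, embryo stages left of the dotted line and larvae, from a separately normalized table with more members, right of it. All 4 complexes were highest among embryos at 16-20 h, and the lowest larval point in each panel is control replicate 3.

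ATPsynC encodes the subunit of the c ring through which protons pass. It had the highest mean of the members analysed in each of the 8 groups (ATPsynbeta was analysed in larvae alone). It stood at 750, 762 and 670 FPKM in 16-20 h mutants and at 727, 786 and 757 FPKM in 16-20 h controls, so the groups overlapped. Within complex V, ATPsyngamma and ATPsynO, of the central and the peripheral stalk, followed it at 16-20 h, with means of 350 and 317 FPKM in mutants and 395 and 355 FPKM in controls. In complex III, UQCR-C1, one of the core proteins, averaged 255 ± 27.7 FPKM in mutants and 245 ± 15.4 FPKM in controls. The complex I members with the highest levels were the accessory subunits ND-AGGG (197 ± 9.14 FPKM in mutants, 237 ± 2.70 FPKM in controls), ND-SGDH (154 ± 12.3 and 157 ± 8.91 FPKM in mutants and controls) and ND-42 (146 ± 9.90 and 154 ± 8.47 FPKM in mutants and controls).

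Most tested members rose over embryonic stages in both genotypes. In mutants 30 of the 37 tested members were higher and 0 lower at 12-16 h than at 8-12 h, with a median log2 fold change of 0.73, where 64.9% of all genes tested changed and 35.8% were higher. In controls 20 were higher and 1, COX4L, lower over the same step, with a median of 0.44, where 68.1% of all genes tested changed and 36% were higher. Without control replicate 2 of 12-16 h the counts were 27 higher and 1 lower in controls, where 65.7% of all genes tested changed. From 12-16 h to 16-20 h, 33 members were higher and 1, again COX4L, lower in mutants (median 0.83; 63.9% of all genes tested changed and 35.8% were higher). In controls 34 were higher and 0 lower over that step (median 1.09; 67.8% changed and 38% were higher). The median of all genes tested lay between 0.02 and 0.05 in these 4 comparisons, in which the groups of 1 step share the samples of 12-16 h with those of the next.

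ATPsynC averaged 229 FPKM at 8-12 h, 409 FPKM at 12-16 h and 728 FPKM at 16-20 h in mutants, and 217.5, 387 and 757 FPKM in controls. UQCR-C2, the other core protein of complex III, had the steepest second step: in mutants it stood at 146, 174 and 107 FPKM at 16-20 h, against 39.5, 62.3 and 67.6 FPKM at 12-16 h, an increase of 1.33 ± 0.32 in log2 (SE; adjusted p = 0.0019 by limma). In controls it stood at 98.4, 124 and 122 FPKM at 16-20 h, against 43.8, 16.9 and 46.4 FPKM at 12-16 h, which gave 1.78 ± 0.32. In both genotypes the later values lay wholly above the earlier ones. ND-AGGG had a flatter course, with means of 132, 166 and 197 FPKM at the 3 stages in mutants and 108, 179 and 237 FPKM in controls.

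The second step depends on the scale. The summed FPKM over all gene rows of the embryo table was 291348 to 331675 in 16-20 h mutants and 297772 to 329589 in 16-20 h controls, against 177781 to 191834 in 12-16 h mutants and 150507 to 171321 in 12-16 h controls. As a share of that sum, the 31 members that are not paralogs took 1.82 to 2.01% in 16-20 h mutants and 1.69 to 1.86% in 12-16 h mutants, and 1.93 to 1.97% in 16-20 h controls and 1.52 to 1.88% in 12-16 h controls. With quantile normalization, which shifted the median of all genes by -0.21 in mutants and -0.30 in controls, only 5 members were higher and 3 lower in mutants over the second step, and 15 higher and 2 lower in controls, where 70.3% of all genes tested changed in mutants and 74.1% in controls. The members' median then lay 0.35 above that of all genes in mutants and 0.51 above it in controls. The first step was less sensitive, with 27 higher and 3 lower in mutants and 19 higher and 3 lower in controls after quantile normalization (68.5% and 68.4% of all genes tested changed in mutants and controls), which shifted the median of all genes by -0.25 in mutants and -0.18 in controls.

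Mutants and controls were then compared at each stage. At 8-12 h, 0 of the 37 members passed the threshold by limma, where 5.63% of all genes tested did, and 4 had an unadjusted p under 0.05, where 22.7% of all genes tested had one. Their median log2 fold change was -0.02, against 0.01 over all genes tested. Of the 37 estimates, 35 were smaller than 0.5 in size (94.6%), against 91.2% over all genes tested. In 3 members all mutant values lay above all control values and in 2 below them, where 30% of all genes tested did not overlap between groups.

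At 12-16 h, 4 of the 37 members were higher in mutants and 0 lower, where 31.7% of all genes tested passed the threshold and 18% were higher. Thus the share of members called, by limma with Benjamini-Hochberg adjustment, was below the background, and 13 had an unadjusted p under 0.05, where 42.7% of all genes tested had one. The members' median log2 fold change was 0.24, against 0.02 over all genes tested, and 28 of the 37 estimates were above 0. By complex, with paralogs included, the median was 0.21 for complex I, -0.10 for complex III, 0.23 for complex IV and 0.35 for complex V. In complex III the paralogs UQCR-11L and UQCR-6.4L, both at low levels, stood at -0.43 and -0.46. The other members there were UQCR-11 (-0.19), UQCR-6.4 (-0.10), UQCR-C1 (0.36), UQCR-Q (0.46) and UQCR-C2 (0.74).

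ND-42 (FBgn0019957, BDGP6 3R:22027709-22029393, plus strand), an accessory subunit of complex I, stood at 97.7, 116 and 97.6 FPKM in 12-16 h mutants, against 80.8, 77.5 and 89.4 FPKM in controls. Every mutant value lay above every control value, and the log2 fold change was 0.325 ± 0.0956 (SE; adjusted p = 0.0179 by limma). ND-39 (FBgn0037001, 3L:20492082-20497084, plus strand), an accessory subunit near the site of ubiquinone reduction, stood at 26.5, 30.6 and 32.0 FPKM in mutants, against 25.5, 15.04 and 25.1 FPKM in controls. Its groups were separated by a narrow margin, with the low control being replicate 2, and its log2 fold change was 0.46 ± 0.16 (adjusted p = 0.0421 by limma).

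ATPsynD (FBgn0016120, 3R:19095000-19096271, plus strand), the subunit d of the ATP synthase's peripheral stalk, stood at 118, 134 and 127 FPKM in 12-16 h mutants, against 104, 54.6 and 111 FPKM in controls. Control replicate 2 was again the low sample, and the log2 fold change was 0.55 ± 0.19 (adjusted p = 0.0377 by limma). COX4L (FBgn0033020, 2R:5353994-5354723, plus strand), the paralog of the complex IV subunit COX4, was near the detection limit at 0.640, 1.07 and 1.22 FPKM in mutants and 0.330, 0.407 and 0.272 FPKM in controls. Its log2 fold change was 0.56 ± 0.19 (adjusted p = 0.0330 by limma), with no overlap between groups. Groups did not overlap in 5 members, all higher in mutants, where 40.9% of all genes tested did not overlap and 21.1% were higher.

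**Figure D2:**
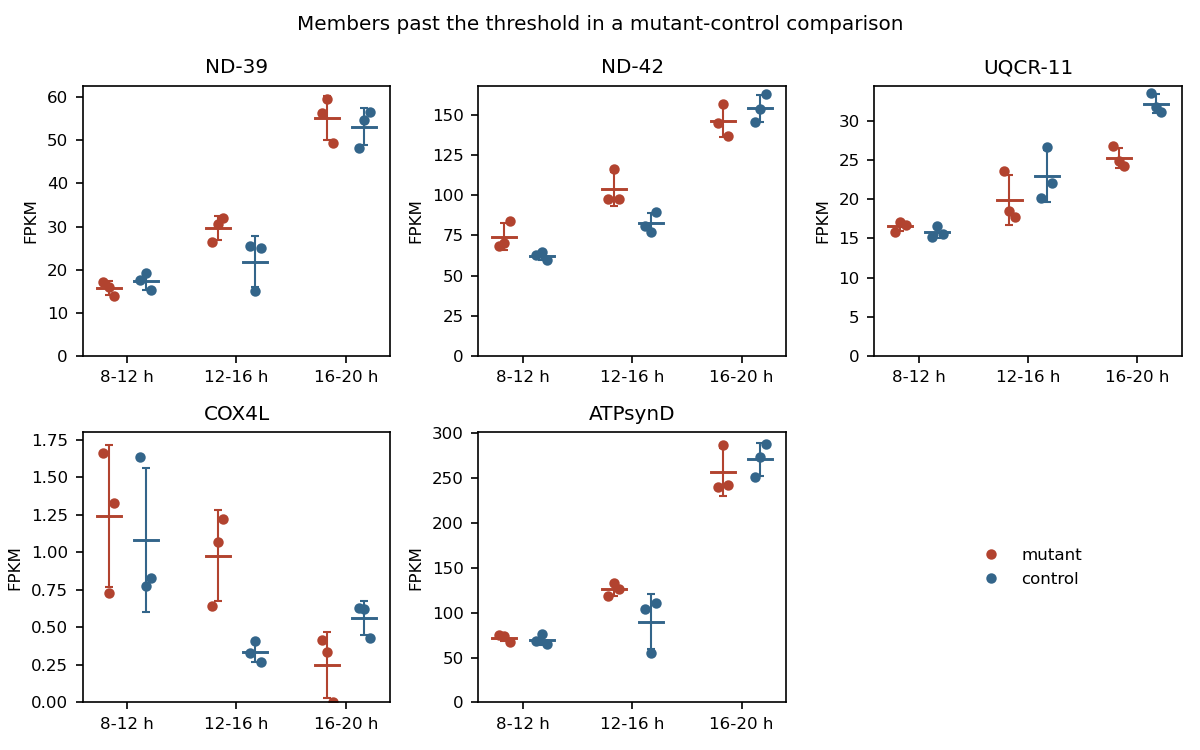
FPKM per sample (points) in embryos for the 5 members past the threshold in a comparison of mutants with controls, with group means (bars) and SD (error bars), n = 3 per group, mutants left of controls. At 12-16 h ND-39, ND-42, COX4L and ATPsynD were higher in mutants, and at 16-20 h UQCR-11 was lower in mutants.

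These 4 calls changed with single libraries. Without control replicate 2 the count at 12-16 h was 0 and the members' median log2 fold change 0.08. Without mutant replicate 2 it was 0, without mutant replicate 3 it was 1, without control replicate 3 it was 16, all higher, and without mutant replicate 1 it was 12, of which 10 were higher. Over these fits 19.4% to 31.4% of all genes tested passed the threshold. With quantile normalization 4 members were called, but 1 (ND-42) was higher and 3 (ND-AGGG, ND-MLRQ and UQCR-11) lower in mutants, where 40.3% of all genes tested were called. With the median of each sample centred, 1 was higher and 1 lower, where 36.2% of all genes tested were called. Fitted to the mutants and controls of 12-16 h alone, 1 member (COX4L) was called, where 11.4% of all genes tested were.

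Other measures moved at 12-16 h as well. The summed FPKM of all gene rows, given above, was higher in every 12-16 h mutant than in any 12-16 h control, while the members' share of it, also given above, overlapped. Of 10 maternal transcript markers in the table, genes whose RNA is loaded into the egg, 8 were tested. Of these, 5 were higher in mutants, where 18% of all genes tested were called higher. The 10 summed to 335 to 685 FPKM in mutants and 62.0 to 93.3 FPKM in controls, and none of them was at 0 in every sample. The part of the summed FPKM and of these transcripts in the result was not tested.

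At 16-20 h, 0 of the 37 members were higher and 1 lower in mutants, where 15.8% of all genes tested passed the threshold and 7.18% were lower, and 4 members had an unadjusted p under 0.05, where 29.5% of all genes tested had one. The median log2 fold change was -0.08, against -0.03 over all genes tested. UQCR-11 (FBgn0260008, 3L:25120709-25126171, plus strand), a small accessory subunit of complex III, stood at 26.7, 24.9 and 24.3 FPKM in mutants, against 33.5, 31.8 and 31.2 FPKM in controls. The groups did not overlap, and the log2 fold change was -0.335 ± 0.105 (adjusted p = 0.0416 by limma). Leaving out any 1 control, mutant replicate 2 or mutant replicate 3 ended this call. The maternal markers were again higher in mutants, 6 of 8 tested, with sums of 232 to 338 FPKM in mutants and 75.3 to 108 FPKM in controls, and their part in the result was not tested. The groups did not overlap in 9 members, all lower in mutants, where 40.9% of all genes tested did not overlap and 21.5% were lower.

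**Figure D3:**
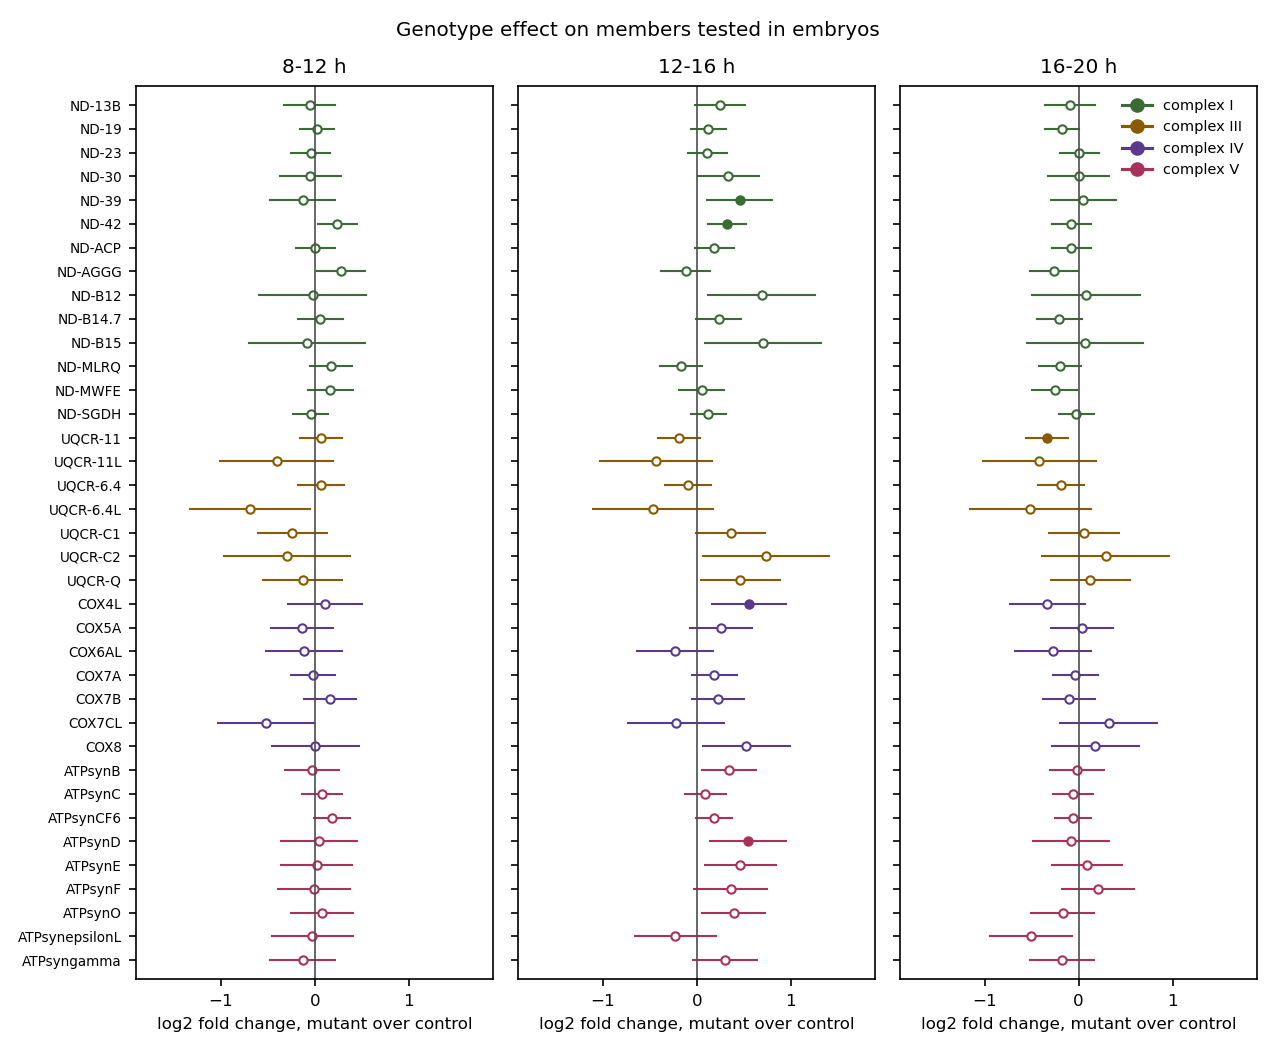
Log2 fold change of mutants over controls with its 95% interval for the 37 members tested in embryos, in 1 panel per stage and coloured by complex; filled points passed the threshold. At 12-16 h most points lie right of 0 (28 of 37), at 8-12 h and 16-20 h they lie on both sides (17 and 13 above 0), and intervals reach ±1 or more in a few genes.

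Whether the genotype effect itself differed between embryo stages was tested with limma's moderated F test. It called 0 of the 37 members, where 14.6% of all genes tested were called, and 7 had an unadjusted p under 0.05, where 33.7% of all genes tested had one. The lowest adjusted p was 0.0748, for COX4L. The difference between 4 calls at 12-16 h and 0 or 1 at the other stages is thus not shown to be a difference between stages.

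In larvae, 0 of the 58 members passed the threshold by limma, where 9.4% of all genes tested did, and 6 had an unadjusted p under 0.05, where 27.6% of all genes tested had one. The median log2 fold change was -0.02, against -0.03 over all genes tested, and -0.19 without control replicate 3. With paralogs included, the medians by complex were 0.01 for complex I, -0.17 for complex III, -0.13 for complex IV and 0.00 for complex V. In complex III the paralog UQCR-11L stood at -0.78. The other members there were UQCR-11 (-0.37), UQCR-6.4 (-0.29), UQCR-Q (-0.05), UQCR-C1 (-0.02) and UQCR-C2 (0.46). The 95% interval lay within ±1 for 51 of the 58 (87.9%), against 83.7% of all genes tested. For these 51 a doubling or halving lay outside the interval. In size, 57 estimates were smaller than 0.5 (98.3%), against 83.1% of all genes tested. Groups did not overlap in 6 members, all lower in mutants, where 34.8% of all genes tested did not overlap and 20.1% were lower.

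ATPsynC stood at 1195, 1227 and 1102 FPKM in mutant larvae, against 1646, 1674 and 1405 FPKM in control larvae. The groups did not overlap, but the log2 fold change of -0.42 ± 0.14 did not pass the threshold (adjusted p = 0.116 by limma). ATPsynbeta, the catalytic subunit of the ATP synthase, stood at 1259, 1117 and 1048 FPKM in mutants, against 1283, 1362 and 1550 FPKM in controls (log2 fold change -0.29 ± 0.15, adjusted p = 0.256 by limma), again without overlap. The paralog UQCR-11L had the lowest adjusted p, 0.0576 by limma, at 2.76, 1.34 and 2.43 FPKM in mutants and 3.95, 4.20 and 4.96 FPKM in controls.

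No subunit that was analysed in larvae alone passed the threshold. ND-51, the complex I core subunit that takes electrons from NADH, averaged 159 ± 14.6 FPKM in mutants and 159 ± 11.7 FPKM in controls. ND-75, a core subunit with iron-sulphur clusters, averaged 100.7 ± 28.9 FPKM in mutants and 86.4 ± 23.8 FPKM in controls. In complex IV, COX4 averaged 253 ± 48.4 FPKM in mutants and 272 ± 61.7 FPKM in controls, and COX5B 164 ± 13.5 FPKM in mutants and 194 ± 44.8 FPKM in controls. The differences in ND-51, ND-75 and COX4 were smaller than the SD within either group, and that in COX5B was smaller than the SD in controls. Without mutant replicate 1, 3 members were called lower in mutants, where 9.51% of all genes tested were called: ND-MLRQ, UQCR-11 and UQCR-11L.

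**Figure D4:**
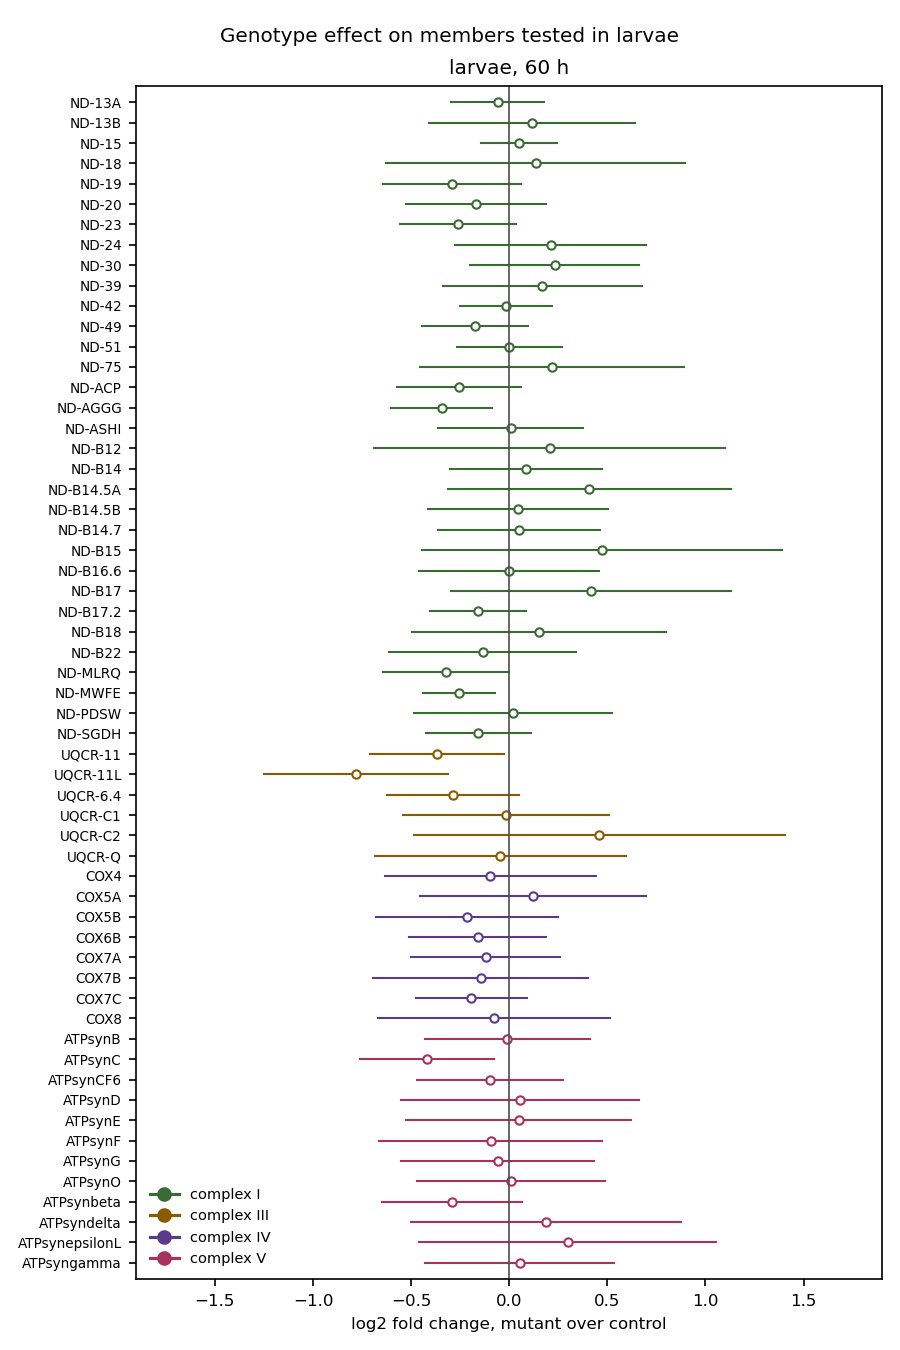
Log2 fold change of mutants over controls with its 95% interval for the 58 members tested in larvae, grouped and coloured by complex; open points did not pass the threshold, and none did. The estimates lie between -0.78 (UQCR-11L) and 0.47 (ND-B15), and the widest intervals belong to UQCR-C2 and ND-B15.

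Some markers of cell types passed the threshold in larvae, where 9.4% of all genes tested did and 0 of the 58 members did. The contrast between markers and members was not tested. Of 12 muscle markers, 7 were lower in mutants and 0 higher, Mhc (myosin heavy chain) at 218 ± 21.1 FPKM in mutants and 350 ± 13.2 FPKM in controls among them, and the 12 summed to 5474 to 7885 FPKM in mutants and 10868 to 12089 FPKM in controls. Of 5 neuron markers tested 3 were higher and 0 lower, with sums of 27.2 to 30.4 FPKM in mutants and 18.3 to 23.97 FPKM in controls. Of 10 midgut markers 3 were higher and 0 lower, with sums of 8075 to 12113 FPKM in mutants and 4912 to 9055 FPKM in controls. Of 5 fat body markers tested 0 passed the threshold (sums above). In these 4 lists no gene was at 0 in every larval sample, and the part of tissue make-up in the members' values was not tested.

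Though few members passed the threshold, their estimates fell in a like order at different stages. Over the 31 members that are not paralogs, the genotype fold changes at 12-16 h and in larvae, which share no samples, had Pearson's r = 0.85 (Spearman's rho 0.83), against 0.20 over the 5256 genes tested in both. UQCR-C2, ND-B12 and ND-B15 had the highest values at 12-16 h, 0.74, 0.69 and 0.70, and stood at 0.46, 0.21 and 0.47 in larvae, where ND-30, at 0.23, lay above ND-B12. UQCR-11, ND-MLRQ and ND-AGGG had the lowest at 12-16 h, -0.19, -0.17 and -0.12, and were among the lowest in larvae at -0.37, -0.32 and -0.34. These correlations run across genes of 1 pathway measured in the same libraries and are descriptions without a test. ND-B12, ND-B15 and ND-MLRQ were singled out after their values were seen. ND-MLRQ is counted with complex I by its symbol, although its mammalian counterpart has been assigned to complex IV.

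A like order was seen between replicates of 1 genotype. The difference of larval control replicate 3 from the other 2 larval controls had r = -0.91 over these 31 members with the genotype fold changes at 12-16 h, and r = -0.75 with those at 16-20 h, although it is a difference between larvae of 1 genotype. In that library ND-B15, UQCR-C2 and ND-B12 lay 1.14, 1.11 and 1.09 below the other 2 controls on the log2 scale, while UQCR-11 lay 0.18 above them and ND-AGGG 0.09 above. The difference of replicate 2 of the 12-16 h controls from the others had r = -0.82 with the larval genotype fold changes. Without both of these libraries, r between the 12-16 h and larval fold changes was 0.58. With all libraries, r between 12-16 h and 16-20 h was 0.76 over the members and 0.45 over all genes tested. Between 8-12 h and 12-16 h it was -0.56 over the members and 0.41 over all genes, between 8-12 h and 16-20 h -0.63 and 0.31, and between 8-12 h and larvae -0.59 and -0.17. Between 16-20 h and larvae it was 0.58 over the members and 0.06 over all genes. With log2 exon length the genotype fold changes had r = -0.31 at 8-12 h, 0.04 at 12-16 h and 0.03 at 16-20 h over 31 members, and 0.08 in larvae over 56. With the mean log2 level r was 0.03, 0.14 and 0.19 at the 3 embryo stages and -0.37 in larvae.

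**Figure D5:**
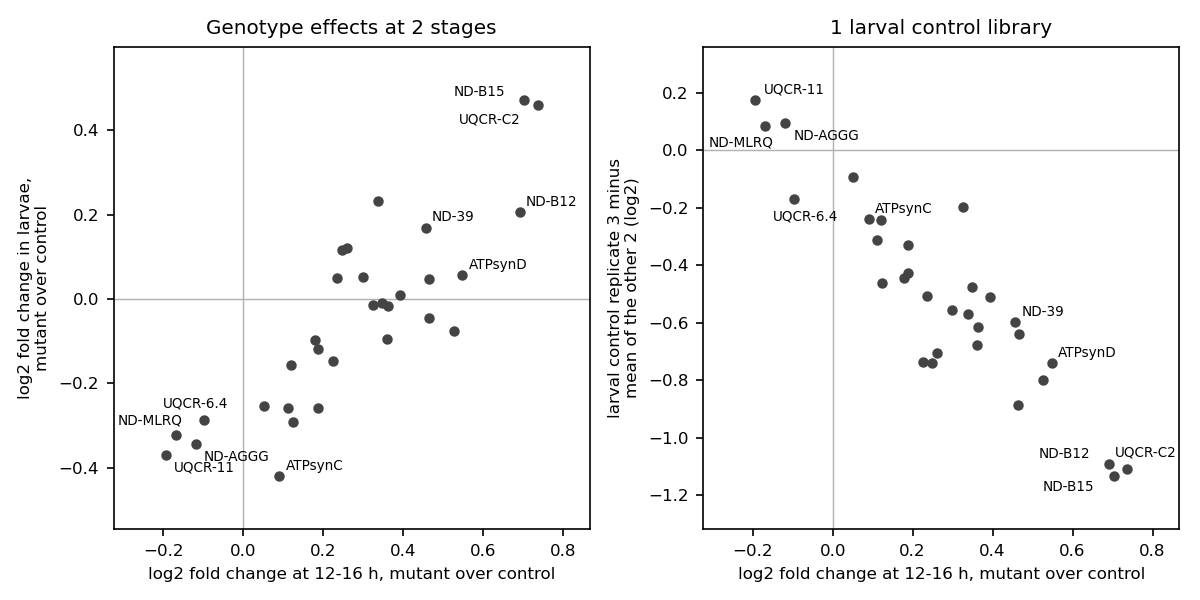
Each point is 1 of the 31 members that are not paralogs and were tested in both tables. Left, the log2 fold change of mutants over controls in larvae against that at 12-16 h (r = 0.85); right, the log2 difference of larval control replicate 3 from the mean of the other 2 larval controls against the same axis (r = -0.91). UQCR-C2, ND-B12 and ND-B15 lie farthest right and UQCR-11, ND-MLRQ and ND-AGGG farthest left in both panels.

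Of the 21 paralogs, 17 are named for a gene that is itself a member. In larvae 16 of the 17 averaged below that gene over the 6 samples, at 3.27 FPKM or less, where the lowest of those genes averaged 35.9 FPKM. The exception was UQCR-14L, at 0.053 FPKM, since UQCR-14 was listed at 0. In larvae, 2 of the 21 passed the filter: UQCR-11L, given above, and ATPsynepsilonL, at 3.04 ± 0.911 FPKM in mutants and 2.41 ± 1.41 FPKM in controls. In embryos 6 did: UQCR-11L, UQCR-6.4L, COX4L, COX6AL, COX7CL and ATPsynepsilonL. UQCR-6.4L averaged 2.90 FPKM in 16-20 h mutants and 4.36 FPKM in 16-20 h controls, where UQCR-6.4 averaged 125 and 141 FPKM in mutants and controls. COX7CL fell below the larval filter, at 1.39, 0.999 and 1.66 FPKM in mutants and 0.369, 0 and 0 FPKM in controls, and was called higher in mutants only when no filter was set. Paralog levels can also be touched by reads from the base gene, since the way shared reads were counted is not given in the sources used here.

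Exons of some members overlap other genes, and the strand setting of the counting is not given in the sources used here, so the levels of these members are uncertain. ND-MNLL, whose exons lie wholly within those of CG45089 on the same strand, and UQCR-14, covered by CG32576 on the opposite strand, were listed at 0 in every larval sample. ND-B8, with 15.4% of its exon bases shared, stood at 1.12, 0.339 and 0.231 FPKM in mutant larvae and 0.167, 0.278 and 0.135 FPKM in control larvae. ND-15, with 15.9% shared, stood at 3.26, 3.02 and 2.96 FPKM in mutants and 2.86, 3.08 and 2.91 FPKM in controls. The complex I members with lower larval means than ND-15 were ND-B8, ND-MNLL and the 6 paralogs. Exons of UQCR-6.4 overlap POSH on the opposite strand over 40.5% of their length, those of ATPsyndelta overlap CG2962 over 35.6%, and those of ND-MWFE overlap other genes over 34.95%. UQCR-6.4 averaged 186 FPKM over the 6 larval samples and ND-B22, with 26.1% shared, 116 FPKM. The part of overlap in the low levels was not tested.

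Other genes of the respiratory chain were taken from lists. Of the 4 complex II subunits tested in each comparison, 0 passed the threshold. Of all genes tested, 5.63% did at 8-12 h, 31.7% at 12-16 h, 15.8% at 16-20 h and 9.4% in larvae. SdhB, the iron-sulphur subunit of complex II, had a log2 fold change of 0.58 ± 0.26 at 12-16 h (44.8 ± 9.82 FPKM in mutants, 30.8 ± 11.6 FPKM in controls; adjusted p = 0.103 by limma). Among 4 subunits under other names in embryos, Cyt-c1, the cytochrome of complex III, was higher in mutants at 12-16 h. It stood at 106 ± 6.998 FPKM in mutants and 81.3 ± 14.3 FPKM in controls (log2 fold change 0.40 ± 0.11, adjusted p = 0.016 by limma). At that stage 18% of all genes tested were called higher in mutants. blw, the alpha subunit of the ATP synthase, missed the threshold there at 340 ± 37.5 FPKM in mutants and 257 ± 59.7 FPKM in controls. In larvae 0 of 9 passed, including sesB, the ADP/ATP translocase, at 663 ± 38.8 FPKM in mutants and 870 ± 31.1 FPKM in controls (adjusted p = 0.087 by limma).

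The 13 protein-coding genes of mitochondrial DNA were tested in larvae only, and 0 passed the threshold, where 9.4% of all genes tested did. Their median log2 fold change was -0.37, and they summed to 38765 to 46499 FPKM in mutants and 44547 to 69391 FPKM in controls, so the groups overlapped. Libraries were selected for poly(A) tails per the labels' kit, which can shape mitochondrial levels. Of 9 assembly factors tested in larvae, where 9.4% of all genes tested were called, 2 were lower in mutants: Cox10, which makes heme for complex IV, at 50.2 ± 4.14 FPKM in mutants and 69.2 ± 5.45 FPKM in controls, and Cox11, which serves its copper site, at 16.9 ± 1.95 FPKM in mutants and 23.7 ± 0.784 FPKM in controls. In embryos 0 of 3 assembly factors were called at any stage. Of 5 regulators of mitochondrial genes tested in embryos, 2 were lower in mutants at 12-16 h, where 31.7% of all genes tested were called: Ets97D, at 5.42 ± 0.399 FPKM in mutants and 6.77 ± 0.173 FPKM in controls, and ERR, at 6.96 ± 0.261 FPKM in mutants and 9.01 ± 0.436 FPKM in controls. The regulator srl, the fly's PGC-1 gene, was lower in mutants at 16-20 h, where 15.8% of all genes tested were called, at 8.26 ± 1.28 FPKM in mutants and 11.7 ± 0.563 FPKM in controls. In larvae 0 of 8 regulators were called.

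The remaining marker counts follow. Of all genes tested, 5.63% were called at 8-12 h, 31.7% at 12-16 h, 15.8% at 16-20 h and 9.4% in larvae. Muscle, neuron and fat body markers had 0 calls at every embryo stage. Of 8 midgut markers tested in embryos, 1 was lower at 8-12 h, 1 higher at 12-16 h, and 1 higher and 1 lower at 16-20 h. Of 5 testis germline markers, 1 was lower at 8-12 h, 1 higher at 12-16 h and 1 lower at 16-20 h, and 0 of 2 were called in larvae. Maternal markers had 0 of 8 called at 8-12 h and 1 of 5 higher in larvae.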

How the data were processed

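Libraries were stranded and selected for mRNA (Illumina TruSeq), per the labels' protocols. The authors deposited FPKM values per gene and sample in separately normalized tables for embryos and larvae. The submitters' processing notes name featureCounts, DESeq2 and BDGP6. The counting options, the strand setting and the FPKM denominator are not given in the sources used here. Depth was estimated from the FPKM steps of low genes, and intervals cover the spread between samples only. Of the rows for embryos, 14336 complete ones were used and 1 incomplete one was left out. Rows without an FBgn gene ID, such as transposable element insertions, were not used (3447 in the embryo and 6383 in the larval table). Of 10889 embryo and 17895 larval gene rows, 10865 and 17855 matched a symbol of the reference annotation.

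Tests used limma 3.58.1 under R 4.3.3 on log2(FPKM + 1), with a trended eBayes. The 18 embryo samples shared a model of 6 group means, and the 6 larval samples had their own. Genes needed 1 FPKM or more in 3 samples. Tables were prepared with Python 3.11.15. The fit was tested on simulated counts with the same setting of replicate spread for every gene and group. That simulation does not cover the uneven spread between groups given above. Over the 24 replicate pairs, Pearson's r across genes was 0.961 to 0.993 and the chi-square per gene at least 3.01, so no library was a copy of another.

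Named members are those past the threshold in a comparison of mutants with controls, the 3 highest per complex, the paralogs and called genes of the lists; others were named after their values were seen. The members and lists were chosen with earlier results of these data known. Alternatives changed the pseudocount (0.1), the filter (none, or 5 FPKM), the scaling (quantile normalization or centred medians), the trend, the samples in the fit and the replicate block, or left out each replicate.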

Additional observations from a re-analysis of the deposited data

How the results depend on the processing

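Shares of all genes tested that were called stand in brackets here. At 8-12 h quantile normalization called 1 member (ND-42, higher) in place of 0 (4.41%, in place of 5.63%). At 12-16 h, 4 members were called (31.7%). The count was 2 with no filter (20.7%), 2 with median centring (36.2%) and 1 with the groups fitted alone (11.4%). It was 0 to 16 when 1 replicate was left out (19.4% to 31.4%). At 16-20 h, 1 was called (15.8%). The count was 0 with a pseudocount of 0.1 (12.3%), 0 with quantile normalization (16.7%) and 2 with the groups fitted alone (18.5%). It was 0 to 1 with 1 replicate left out (8.43% to 15.2%). The member called was UQCR-11 without mutant replicate 1 and ATPsynepsilonL without mutant replicate 2. In larvae the count was 1 (COX7CL) with no filter (3.38%) and 0 to 3 with 1 replicate left out (2.52% to 9.51%). The F test called 1 with median centring (15.1%) and 0 to 1 with 1 replicate left out (7.64% to 18%). Over 12-16 h to 16-20 h, quantile normalization left 8 members called in mutants (70.3%) and 17 in controls (74.1%).

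With the replicate number as a block, the counts were 0, 1 (COX4L), 0 and 0 for the genotype comparisons at 8-12 h, 12-16 h, 16-20 h and in larvae. Of all genes tested, 2.9%, 24.7%, 11.8% and 1.54% were then called. For the stage steps the counts were 29, 20 higher with 1 lower, 34 and 34. There 63.9%, 67.2%, 62.4% and 66.8% of all genes tested were called. In no genotype comparison did every same-numbered pair of samples deviate together (correlations of -0.366, -0.393 and -0.172 in larvae). Deviations from a mean of 3 samples sum to 0 within a group. The correlations therefore cannot show whether same-numbered samples were handled together. No sample set correlated best with its own number throughout.

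Quantile normalization reversed the second step in mutants for ATPsynC (-0.11), COX7A (-0.021), COX7B (-0.065), ND-42 (-0.22), ND-AGGG (-0.52), ND-SGDH (-0.14) and UQCR-6.4 (-0.029), and in controls for ATPsynC (-0.25), ND-AGGG (-0.73), ND-SGDH (-0.18) and UQCR-6.4 (-0.15). It reversed the first step in mutants for ND-AGGG (-0.098). These are log2 fold changes, and the cause was not tested. Adjusted p over the alternatives ran from 0.0105 to 0.1995 for ATPsynD, 0.0165 to 0.104 for COX4L, 0.0234 to 0.191 for ND-39, 0.0140 to 0.101 for ND-42 and 0.0127 to 0.137 for UQCR-11 at 16-20 h. The mean over members in place of the median was 201 FPKM for complex V in embryos and 467 FPKM in larvae. The planned search of promoters for motifs was not run. Near 1 FPKM, as for the paralogs, depth limits what can be seen.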
